A study of Mus musculus with 6 samples.

Results

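The 40 genes described here encode the machinery that builds and remodels actin filaments in the dendritic spine, and they were read in the medial prefrontal cortex (mPFC) of *Shank3* transgenic (TG) and wild-type (WT) mice. They were chosen by symbol, from the subunits and regulators of the Arp2/3 and WAVE complexes, the Rac-PAK-LIMK-cofilin pathway, and actin with its direct binding proteins. All 40 were found among the 18254 genes of the deposited table, and all 40 passed the filter on low values (a mean of at least 5 normalized counts), as did 16714 genes in all. The *Shank3* TG mice carry an EGFP-*Shank3* transgene in addition to their own *Shank3*, and the WT mice were their littermates. Both genotypes were male, 10 to 12 weeks old and on a C57BL/6J background, no treatment is named, and the promoter of the transgene is not given in the sources used here. Each of the 6 RNA samples, 3 TG (TG-1 to TG-3) and 3 WT (WT-1 to WT-3), pooled the mPFC of a pair of mice of one genotype. The spread between libraries is thus a spread between pools.

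Most excitatory synapses on the excitatory neurons of the cortex sit on spines, whose shape is held in large part by branched actin filaments. Rac1 activates the WAVE complex, WAVE activates the Arp2/3 complex, and Arp2/3 starts new branches on existing filaments. In parallel, Rac1 activates PAK kinases, PAK activates LIM kinase, and LIM kinase phosphorylates and thereby inactivates cofilin, which severs filaments, while slingshot phosphatases reverse this step. Shank3, a scaffold of the postsynaptic density, binds the actin-binding protein cortactin and has been described to bind the Arp2/3 complex. The comparison of TG with WT therefore asks whether more *Shank3* goes along with other mRNA levels of the actin machinery next to it.

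*Shank3* (ENSMUSG00000022623, chromosome 15) had 17470, 19004 and 16310 normalized counts in TG-1 to TG-3 and 8374, 8173 and 6791 in WT-1 to WT-3, so that every TG library was above every WT library. Its log2 fold change (log2FC) of TG over WT was 1.18, with a standard error (SE) of 0.10. In limma's test, the overexpressed gene itself had an adjusted p-value of 0.0643 when libraries were not paired, short of the threshold of 0.05, and of 0.000437 when libraries of the same number were paired by a block. Library sums ran from 28363967 to 29447717 normalized counts, and the 40 genes made up 0.81% to 0.867% of that sum. Among marker lists of other cell types, the 10 oligodendrocyte genes had a summed level of 45880 to 59960 normalized counts in TG and 66570 to 79070 in WT, and the 8 olfactory bulb genes reached 2468 in TG-2 against 434.9 to 653 in the other libraries. The 10 leptomeningeal genes had a summed level of 5054 to 6019 in TG and 4271 to 5225 in WT, which overlap, with a higher mean in TG for all 10 and a median log2FC of 0.30. The part of these lists in the values of the actin genes was not tested. The 10 excitatory neuron genes, which mark the cells that carry most spines, summed to between 204600 and 267200 in TG and between 200300 and 262300 in WT. Of these 10 genes, 2 were without overlap, *Slc17a7* with TG above WT (log2FC 0.13) and *Slc17a6* with TG below (log2FC -0.17). The sums of the 10 inhibitory neuron genes did not overlap, with 24230 to 24330 in TG and 23300 to 23990 in WT, while 0 of the 10 genes was without overlap on its own and their median log2FC was -0.00. In bulk tissue, fewer cells of a type and less RNA per cell cannot be told apart. The libraries numbered 3 stood apart from the other 4 in both genotypes, which widened the intervals of a few genes named below.

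No difference between TG and WT passed the test for any of the 40 actin genes. In limma's moderated test on log2(normalized count + 1), fitted over all 16714 genes, 0 of the 40 were called at an adjusted p-value of 0.05 (0% of all genes tested), and 0 were below 0.05 before adjustment (2.01% of all genes tested). When libraries of the same number were paired by a block, 0 of the 40 passed after adjustment (0.00598% of all genes) and 2, *Wasf1* and *Arpc4*, were below 0.05 before it (4.98% of all genes). No DESeq2 or edgeR test was run, since the values are not counts of whole reads. The log2FC values of the 40 genes lay between -0.16 for *Arpc4* and 0.17 for *Wasf1*, with a median of 0.01, and the median of all genes tested was -0.00. The mean was higher in TG for 24 genes on the log2 scale and lower for 16, compared with 8119 and 8595 of all genes tested.

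The 95% interval of the log2FC lay within 0.5 of 0, or a 1.41-fold difference in either direction, for 36 of the 40 genes, compared with 62.9% of all genes tested. The exceptions were *Arpc2*, *Arpc4*, *Was* and *Pak2*. The median unpaired SE was 0.089 for the 40 genes and 0.132 for all genes tested, which were kept from a mean of 5 normalized counts upward. How far the level of the genes sets the difference between these shares was not tested. In the paired fit, the interval lay within the same bounds for 39 of the 40 genes (71% of all genes), all but *Was*. The plot of fold changes sets these intervals beside that of *Shank3*, which ran from 0.94 to 1.42.

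**Figure D1:**
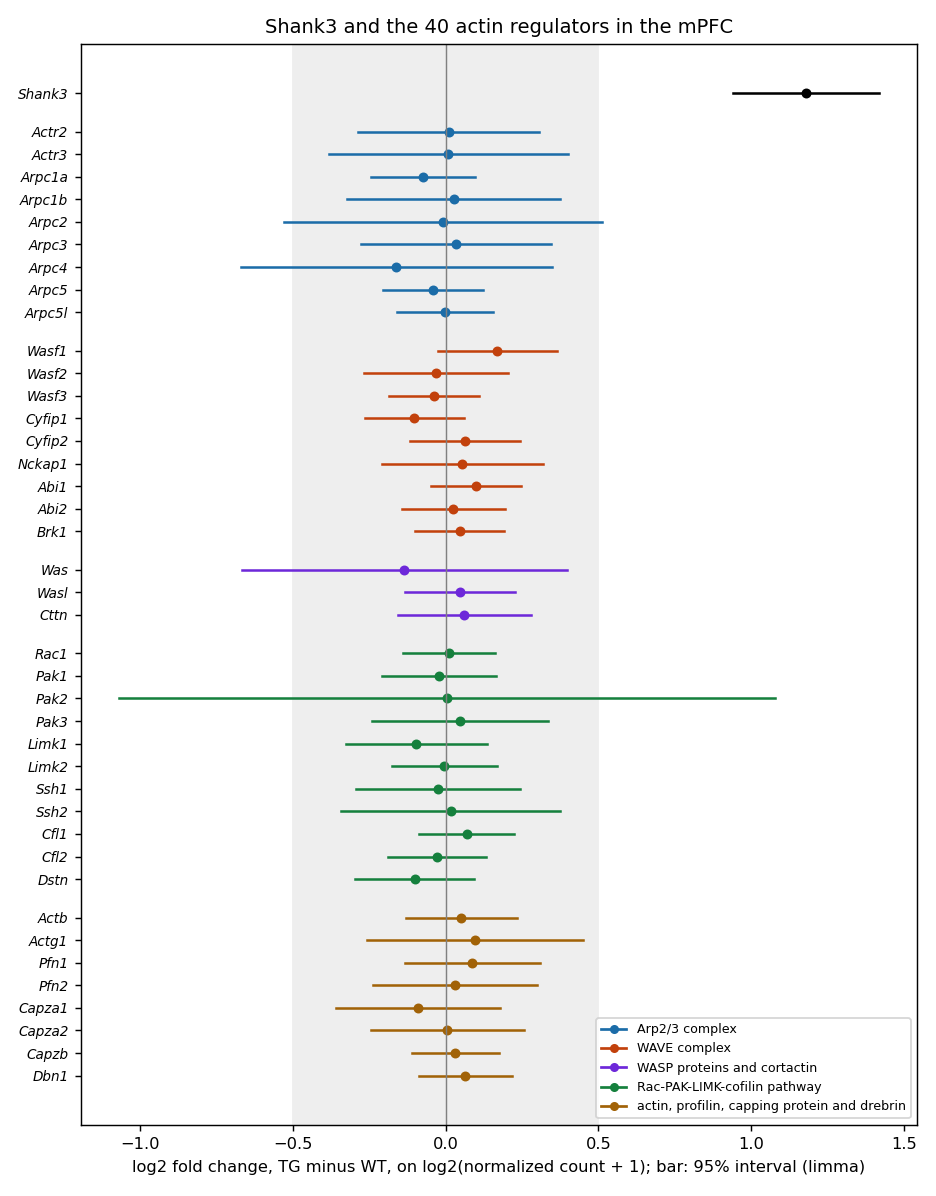
Log2 fold change of TG over WT for *Shank3* and the 40 actin regulators, with points for the limma estimate, bars for its 95% interval (3 libraries per genotype), colours for the role of each gene and a grey band from -0.5 to 0.5. The 40 points lie between -0.16 and 0.17, every bar of an actin gene crosses 0, and the bar of *Pak2* is the widest, from -1.07 to 1.08.

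Levels of different genes were compared as normalized counts per kb of merged exons. Both cytoplasmic actins stood at the top of the order. *Actg1* (chromosome 11, 120345690 to 120348542), γ-actin, had a mean of 8906 normalized counts per kb over the 6 libraries, and *Actb* (chromosome 5, 142903115 to 142906754), β-actin, had 8263. Their ranges overlapped, from 7108 to 10799 and from 7573 to 8894. *Cfl1* (chromosome 19, 5490455 to 5495201), the main cofilin of neurons, followed with 6730, and *Cyfip2* with 4562, and each of these lay under every library of the gene before it. At the other end, *Arpc1b* had 74.5 and *Was* 18.9 normalized counts per kb, so that the highest and lowest gene differed 472-fold. Of the 39 neighbours in this order, 10 did not overlap in any library and 29 did. With the length of the longest transcript in place of the merged exons the 3 highest genes and the lowest gene held their ranks, and the largest shift was that of *Arpc3*, from rank 18 to rank 10.

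**Figure D2:**
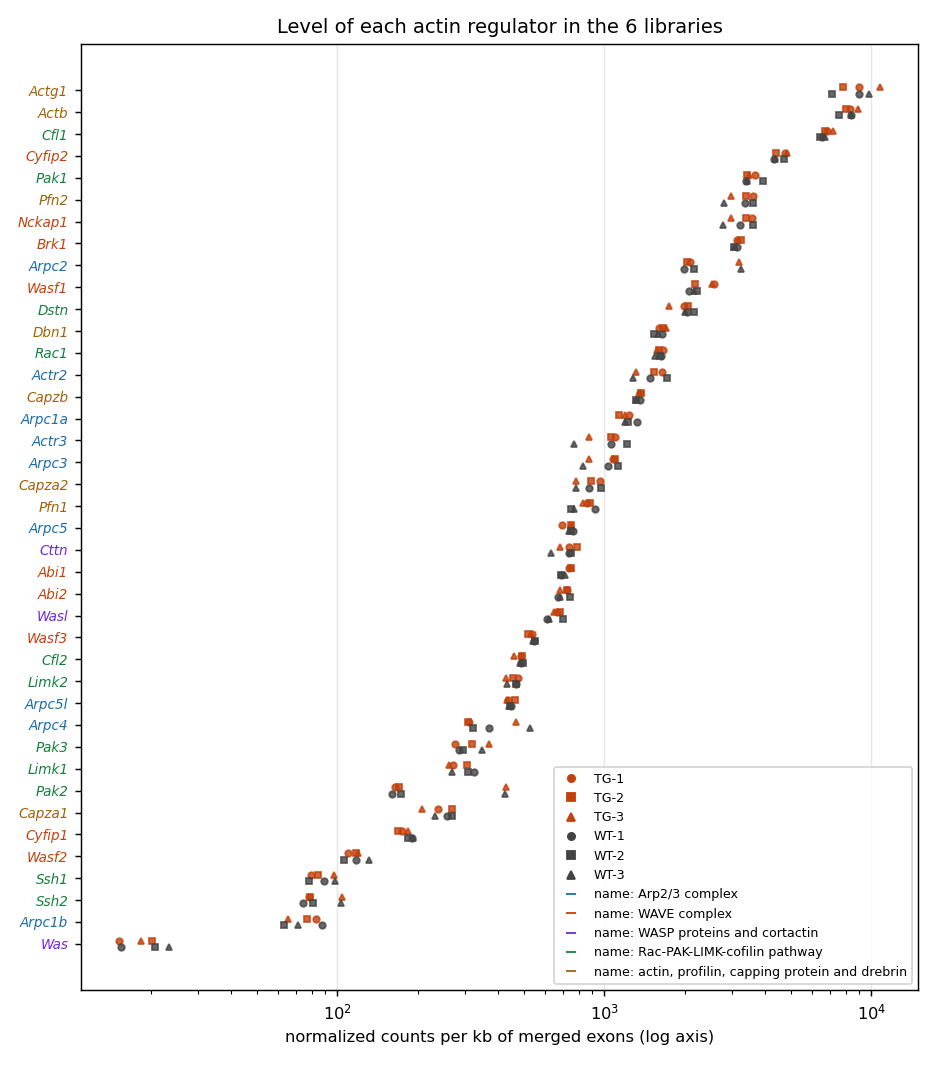
Normalized counts per kb of merged exons (log axis) for the 40 actin regulators, ordered by their mean, with one symbol per library and the gene names coloured by role. TG and WT symbols overlap for most genes, and the triangles of the libraries numbered 3 lie apart for *Pak2*, *Arpc2* and *Arpc4*.

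Actin genes are classical targets of serum response factor, which binds the CArG box. In the RefSeq promoters of GRCm38.p6 (250 bases before to 50 after the start), 32 of the 40 genes had an entry. *Actb* was among those without an entry, so its promoter was not searched for any motif. A CArG box on either strand was present in 2 of these 32 (6.25%), *Actg1* and *Arpc4*, and in 1.7% of the 12341 genes tested that had an entry. The stretch of the *Actg1* promoter from 150 to 51 bases before the start is shown because this is the highest of the 40 genes per length, with the CArG box, 90 to 81 bases before the start, in capitals. It lies at chr11:120348546-120348645 on the minus strand.
Actg1: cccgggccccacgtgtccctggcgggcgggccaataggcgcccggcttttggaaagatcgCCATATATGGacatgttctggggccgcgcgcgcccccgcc
The motif TATAAA was found on either strand in 0 of the 32 promoters and in 9.63% of those of the genes tested, the GC box GGGCGG in 78.1% and 64.1%, and CCAAT in 37.5% and 42.4%. The median GC content of the promoters was 64.8% for the 32 genes and 60% for the genes tested. These matches are letters in a window and say nothing about which factors were bound.

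The Arp2/3 complex consists of the actin-related proteins Arp2 and Arp3 and further subunits, some of which exist as paralogs. Of the 9 genes, 4 had a higher and 5 a lower mean in TG, the median log2FC was -0.00, and 0 of the 9 had groups that did not overlap. *Arpc2* (ENSMUSG00000006304, chromosome 1, 74236084 to 74268209), which encodes part of the core that holds the complex to the mother filament, was the highest of them per length, with 2455 normalized counts per kb. It had 4267, 4153 and 6500 normalized counts in TG and 4043, 4407 and 6577 in WT. The library numbered 3 was the high one in both genotypes, and the other 4 lay close together. *Arpc2* had a log2FC of -0.01 (SE 0.22), with a 95% interval from -0.53 to 0.51 that narrowed to -0.14 to 0.12 in the paired fit.

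*Arpc1a* (ENSMUSG00000029621, chromosome 5, 145083830 to 145108761) had the smallest p of the complex before adjustment, 0.35 in limma's test. It had 3160, 2905 and 3055 normalized counts in TG and 3388, 3138 and 3072 in WT, a log2FC of -0.07 (SE 0.07). Its 3 TG values lay below the WT value of the same number, but the groups overlapped. Its paralog *Arpc1b*, which is common in blood and immune cells, lies next to it on the same strand (chromosome 5, 145114215 to 145130705) and was far lower. Per length, *Arpc1a* was 14.8 to 19.5 times *Arpc1b* in the 6 libraries. For the other pair of paralogs, *Arpc5l* stood at 0.576 to 0.629 of *Arpc5*.

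*Arpc4* (ENSMUSG00000079426, chromosome 6, 113378115 to 113390448), which joins with the *Arpc2* product in the core, had 723, 716 and 1083 normalized counts in TG and 858, 747 and 1225 in WT. Each TG value was below the WT value of its number, and in both genotypes the library numbered 3 was the highest. The log2FC of -0.16 (SE 0.22) was the lowest of the 40 genes, but leaving out single libraries moved it to between -0.36 and 0.0424, and its direction turned without WT-3. In limma's test p was 0.483 unpaired and 0.0473 paired, and 1 and 0.996 after adjustment. *Arpc4* is described after its values had been seen. The transcripts of *Arpc4* share 10.8% of their 31-base words with those of *Ttll3*, so that part of its reads could have been assigned to either. For *Actr2*, *Actr3*, *Arpc3*, *Arpc5* and *Arpc5l* the log2FC values lay between -0.04 and 0.03.

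The WAVE complex joins a WAVE protein (*Wasf1* to *Wasf3*), which activates Arp2/3, to Cyfip, Nckap1, Abi and Brk1, which hold it inactive until Rac1 binds. For 4 of its 9 genes the TG and WT libraries did not overlap, *Abi1* and *Brk1* with TG above WT and *Wasf3* and *Cyfip1* with TG below. Of all 40 genes these were the only 4, where 6.02% of all genes tested did not overlap, 2.91% with TG above and 3.12% with TG below. The 4 differences lay between -6.83% (*Cyfip1*) and 7.08% (*Abi1*) of the WT level, and none was below 0.05 in limma's test before adjustment. *Abi1* (ENSMUSG00000058835, chromosome 2, 22940073 to 23040241), an adaptor of the complex, had 2963, 3020 and 3018 normalized counts in TG and 2780, 2767 and 2859 in WT. The TG libraries were close to each other, and the lowest of them was above WT-3. For *Abi1* the log2FC was 0.10 (SE 0.06), and limma gave an unadjusted p-value of 0.158 and an adjusted one of 1.

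*Cyfip1* (ENSMUSG00000030447, chromosome 7, 55841745 to 55932602), which links Rac1 to WAVE and also binds the fragile X protein, had 2079, 2010 and 2192 normalized counts in TG and 2262, 2196 and 2281 in WT. The groups were separated by the narrow step from TG-3 to WT-2. *Cyfip1* had a log2FC of -0.10 (SE 0.07), and limma gave an unadjusted p-value of 0.182 and an adjusted one of 1. *Cyfip2* (ENSMUSG00000020340, chromosome 11, 46193850 to 46312859), the paralog with the higher level, had 33710, 31227 and 34394 normalized counts in TG and 30776, 33429 and 30895 in WT. Its groups overlapped, with TG-2 low and WT-2 high, and its log2FC was 0.06 (SE 0.08).

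*Wasf3* (ENSMUSG00000029636, chromosome 5, 146384985 to 146473615) had 2784, 2687 and 2766 normalized counts in TG and 2820, 2842 and 2794 in WT. For *Wasf3* the log2FC was -0.04 (SE 0.06), and its groups were apart by the step from TG-1 to WT-3. *Brk1* (ENSMUSG00000033940, chromosome 6, 113604772 to 113616951), the smallest subunit, had 3439, 3543 and 3472 normalized counts in TG and 3437, 3343 and 3349 in WT, so that TG-1 and WT-1 were nearly equal. *Brk1* had a log2FC of 0.05 (SE 0.06).

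*Wasf1* (ENSMUSG00000019831, chromosome 10, 40883475 to 40938570), the WAVE protein with the highest level in these libraries, had the highest fold change of the 40 genes. It had 7351, 6214 and 7196 normalized counts in TG and 5905, 6324 and 6188 in WT. TG-1 and TG-3 lay above all WT libraries and TG-2 among them. For *Wasf1* the log2FC was 0.17 (SE 0.08, 95% interval from -0.03 to 0.36), and leaving out single libraries moved it to between 0.12 and 0.25. In limma's test p was 0.0801 unpaired and 0.0421 paired, and 1 and 0.996 after adjustment. *Nckap1*, *Abi2* and *Wasf2* had log2FC values of 0.05, 0.02 and -0.03.

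The balance between paralogs was read as the ratio of their levels per length in each library, for 14 pairs of the 40 genes. The TG and WT ratios did not overlap for 2 of the 14 pairs, which are given as a description. *Cyfip2* was 27.3, 26.1 and 26.4 times *Cyfip1* in TG and 22.9, 25.6 and 22.8 times in WT, a difference of 0.16 in the log2 ratio. *Wasf3* was 0.208, 0.238 and 0.211 of *Wasf1* in TG and 0.262, 0.247 and 0.248 in WT, a difference of -0.21 in the log2 ratio. For both pairs every TG ratio lay on one side of every WT ratio. The exact two-sided permutation test of 3 libraries against 3 gave p = 0.1 for each, the smallest value it can give, and an adjusted p-value of 0.7 over the 14 pairs, so that this test could not pass 0.05 for any pair. The length used sets the size of the ratio itself: with the longest transcripts, *Cyfip2* was 14.5 times *Cyfip1* on average.

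**Figure D3:**
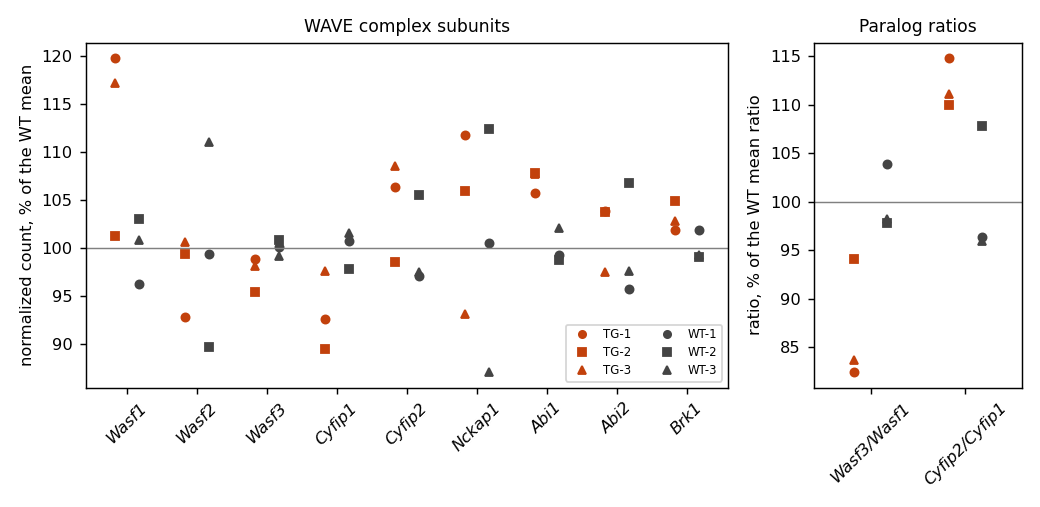
Left, normalized counts of the 9 WAVE complex genes in each library as a percentage of the WT mean of that gene. Right, the ratios *Wasf3*/*Wasf1* and *Cyfip2*/*Cyfip1* (normalized counts per kb) as a percentage of the WT mean ratio, with circles, squares and triangles for the libraries numbered 1, 2 and 3. TG (orange) and WT (grey) do not overlap for *Wasf3*, *Cyfip1*, *Abi1*, *Brk1* and both ratios.

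Outside WAVE, Arp2/3 is activated by the WASP proteins and helped by cortactin, which stabilizes branches. *Cttn* (ENSMUSG00000031078, chromosome 7, 144435733 to 144471009), cortactin and a binding partner of Shank3, had 3092, 3301 and 2859 normalized counts in TG and 3086, 3138 and 2650 in WT. Each TG library was above the WT library of its number, by little for number 1, and the groups overlapped. *Cttn* had a log2FC of 0.06 (SE 0.09, 95% interval from -0.16 to 0.28), and limma gave an unadjusted p-value of 0.529 and an adjusted one of 1. *Wasl*, the WASP protein of neurons, had a log2FC of 0.05 (SE 0.08). *Was*, the WASP protein of blood cells and microglia, was the lowest of the 40 genes, with 36.2 to 47.9 normalized counts in TG and 36.8 to 55.7 in WT, and its 95% interval ran from -0.67 to 0.40. The 10 microglia genes, all above 0 in every library, had a summed level of 10220 to 12340 normalized counts in TG and 10760 to 13190 in WT.

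In the Rac-PAK-LIMK-cofilin pathway 5 genes had a higher and 6 a lower mean in TG, with a median log2FC of -0.01. *Rac1* itself, the switch at the head of both branches, had 7473, 7174 and 7080 normalized counts in TG and 7344, 7241 and 6970 in WT. For *Rac1* the log2FC was 0.01 (SE 0.06, 95% interval from -0.14 to 0.16), one of the narrowest intervals among the 40 genes. *Pak1*, the most abundant of the 3 PAK kinases per length, had a log2FC of -0.02 (SE 0.08), and *Pak3* one of 0.05 (SE 0.12). *Limk1* and *Limk2* had -0.10 and -0.01, and the slingshot phosphatases *Ssh1* and *Ssh2* had -0.02 and 0.02. Each of these had overlapping groups.

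The 3 actin-severing proteins of the cofilin family were unequal in level. *Cfl1* had 19384, 19060 and 20357 normalized counts in TG and 18610, 18301 and 19123 in WT. Each TG library was above the WT library of its number, and TG-2 lay just below WT-3. *Cfl1* had a log2FC of 0.07 (SE 0.07, 95% interval from -0.09 to 0.23). *Dstn* (ENSMUSG00000015932, chromosome 2, 143915320 to 143943324), destrin, stood at 0.243 to 0.335 of *Cfl1* per length, and *Cfl2*, known as the muscle form, at 0.0641 to 0.0769. *Dstn* had 3793, 3939 and 3323 normalized counts in TG and 3881, 4122 and 3835 in WT, each TG library below the WT library of its number. Its log2FC was -0.10 (SE 0.08), and limma gave an unadjusted p-value of 0.263 and an adjusted one of 1, with no smaller value in the pathway.

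*Pak2* (ENSMUSG00000022781, chromosome 16, 32016290 to 32079342), a PAK kinase found in most tissues, had the widest spread of the 40 genes and is described for that reason, after its values had been seen. It had 1115, 1153 and 2906 normalized counts in TG and 1089, 1179 and 2881 in WT. The libraries of one number were close to equal, and both libraries numbered 3 were high. On the log2 scale TG-3 lay 1.36 above the mean of TG-1 and TG-2, and WT-3 lay 1.35 above that of WT-1 and WT-2. The log2FC between genotypes was 0.01, with an SE of 0.46 unpaired and 0.06 paired, and the paired 95% interval ran from -0.13 to 0.14.

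A shift of the library numbered 3 by more than 0.5 on the log2 scale, in the same direction in both genotypes, was found for 3 of the 40 genes (7.5%), *Pak2*, *Arpc2* and *Arpc4*, and for 7.36% of all genes tested. *Arpc2* was shifted by 0.63 in TG and 0.64 in WT, and *Arpc4* by 0.59 and 0.61. Some other Arp2/3 subunits lay on the other side of 0. *Actr3*, which encodes Arp3, was shifted by -0.30 and -0.56, *Arpc3* by -0.31 and -0.37, and *Actr2* by -0.27 and -0.32. What sets these libraries apart was not tested.

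**Figure D4:**
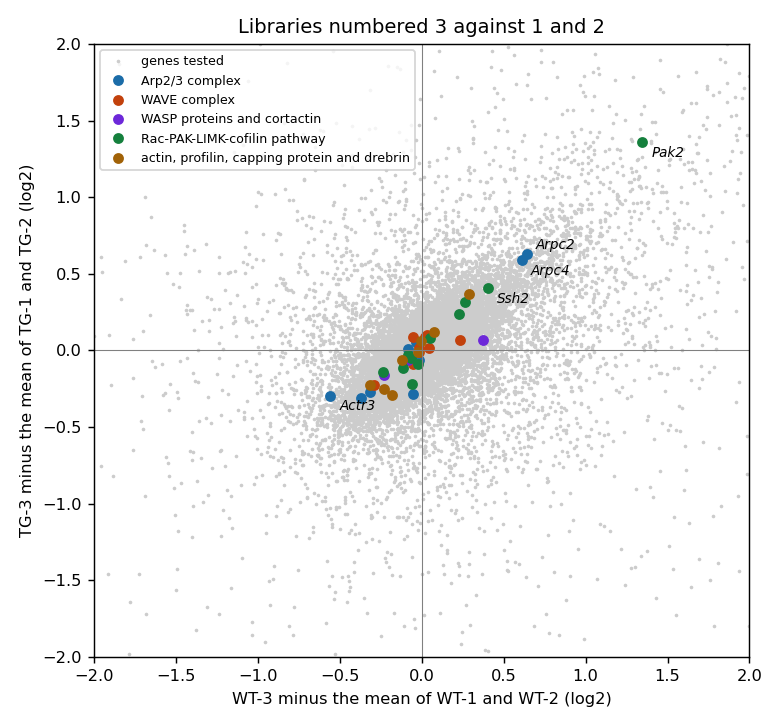
Difference on the log2 scale between the library numbered 3 and the mean of the libraries numbered 1 and 2, in WT (horizontal axis) and in TG (vertical axis), for the 40 actin regulators (coloured) and all genes tested (grey, of which 335 lie outside the axes). *Pak2*, *Arpc2* and *Arpc4* lie at the upper right and *Actr3* at the lower left, at nearly the same height in both genotypes except for *Actr3*.

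Actin, its monomer-binding protein profilin, the capping protein that stops filament ends from growing, and drebrin, which marks the stable actin of spines, formed the last group. The mean was higher in TG for 7 of these 8 genes, compared with 8119 of all 16714 genes tested. The median log2FC of the 8 genes was 0.04, and the groups overlapped for all 8. *Actg1* had 23922, 20725 and 28703 normalized counts in TG and 23871, 18892 and 25919 in WT. In both genotypes the library numbered 3 was the highest and that numbered 2 the lowest, and the log2FC was 0.09 (SE 0.15). *Dbn1* (ENSMUSG00000034675, chromosome 13, 55473429 to 55488111), drebrin, had 7255, 7490 and 7689 normalized counts in TG and 7391, 6931 and 7132 in WT. It was higher in TG for the libraries numbered 2 and 3 and lower for those numbered 1, with a log2FC of 0.06 (SE 0.07), and limma gave an unadjusted p-value of 0.356 and an adjusted one of 1.

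The other genes of this group had log2FC values between -0.09 and 0.09. *Pfn2*, the profilin of neurons, stood at 3.58 to 4.83 times *Pfn1* per length. *Capzb*, the β subunit of capping protein, had among the narrowest intervals, from -0.11 to 0.17. *Actg1*/*Actb* was 0.939 to 1.21 per length over the libraries. Transcripts of 7 of the 40 genes share over 10% of their 31-base words with other genes, such as predicted Gm genes or, for *Actb*, *Lrrc58*. The share was 67.2% for *Capza1*, 40.2% for *Actg1*, 34.2% for *Actr3*, 23.5% for *Actb*, 13.2% each for *Cfl1* and *Arpc1b*, and 10.8% for *Arpc4*. Levels and ratios of these 7 genes thus depend on how reads were split. In contrast, 11 genes, *Wasf1*, *Cyfip2*, *Abi1* and *Brk1* among them, share none.

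A list of 110 other actin genes, such as formins, regulators of Arp2/3, turnover factors and myosins, was read in the same fit. Of the 109 that were tested (all but *Pdxp*), 0 were called by limma, paired or not, 57 had a higher and 52 a lower mean in TG, and the median log2FC was 0.01. Before adjustment, p was below 0.05 for 1 of the 109 genes unpaired and for 6 paired, where the shares of all genes tested were 2.01% and 4.98%. The gene with the smallest p-value was *Daam1*, a formin that elongates unbranched filaments. It had 1890, 1949 and 1975 normalized counts in TG and 2143, 2155 and 2191 in WT, without overlap. For *Daam1* the log2FC was -0.16 (SE 0.07), and limma gave an unadjusted p-value of 0.0424 and an adjusted one of 1, and it was 1 of the 6 in the paired fit.

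The next 3 genes of the list by p-value had overlapping groups. *Gsn*, gelsolin, which severs filaments and is abundant in oligodendrocytes, had 1188, 1398 and 1107 normalized counts in TG and 1480, 1423 and 1355 in WT, a log2FC of -0.21 (SE 0.10). The oligodendrocyte genes given above were lower in the same libraries, and their part in the *Gsn* value was not tested. *Myo6*, a myosin that moves towards the minus end, had 2921, 3210 and 3070 in TG and 3597, 3094 and 3792 in WT, a log2FC of -0.18 (SE 0.09). *Pak6*, a PAK kinase of the second group, had 2790, 2619 and 2911 in TG and 2703, 2367 and 2483 in WT, a log2FC of 0.14 (SE 0.08). In the paired fit, limma's p before adjustment was 0.0211 for *Gsn*, 0.0446 for *Myo6* and 0.0427 for *Pak6*, which are thus also among the 6, and the paired p-values after adjustment were 0.887, 0.996 and 0.996. Unpaired, the adjusted p-value was 1 for all 3.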

How the data were processed

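RNA of the mPFC was sequenced as 6 libraries, 3 TG and 3 WT. The authors made stranded mRNA libraries, estimated transcript abundance with Salmon 0.9.1 on GRCm38 with GC bias correction, summed it to genes with tximport and normalized it in DESeq2 1.19.11 (versions from the submitters' processing notes). The deposited values are a signal, gene counts divided by size factors, and are not whole reads, so no counting error or count test was computed from them. They do not hold the depth in reads, and the read totals of the study were not used here. Whether pools came from separate litters is not given in the sources used here, so p-values measure the spread between these pools.

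Gene symbols, positions and exon lengths came from GENCODE M21 (GRCm38). Genes averaging 5 normalized counts or more were fitted as log2(normalized count + 1) in limma 3.58.1 (R 4.3.3) with genotype alone (lmFit, eBayes with trend), two-sided, with Benjamini-Hochberg adjustment over 16714 genes and a threshold of 0.05. Fold changes are on this scale, which understates changes of low genes. Ratios of paralogs were compared by an exact permutation test (scipy 1.17.1). The correlation of deviations from the genotype means was 0.302, 0.332 and 0.616 for libraries of the same number. Across numbers 1 and 2 it was 0.266 and 0.227, and between a library numbered 3 and another number it was -0.389 to -0.443. The libraries numbered 3 thus went together, while numbers 1 and 2 were hardly told apart. The labels do not say that libraries of 1 number form a pair. The fit called paired here took that number as a block. The words shared between genes were 31 bases long. The fits were tested on simulated data, and the outcome of that test is not given here.

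The genes, lists and alternatives were chosen with earlier results of these data known. Values in every library are given for genes without overlap between genotypes, for the gene of each role with the smallest p-value or the highest level per length, for pairs whose ratios do not overlap, and for *Rac1*, *Pak2* and *Arpc4* (added after their values had been seen), as well as for the other actin genes with the 5 smallest p-values, of which 1 is not reported here. Promoters came from RefSeq (GRCm38.p6).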

Additional observations from a re-analysis of the deposited data

How the results depend on the processing

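Under 18 alternatives (pseudocounts of 0.1 and 5, no filter or a mean of at least 50, upper quartile or quantile scaling, eBayes without trend or robust, the replicate number as a block with and without the robust option, an empirical null, each library left out in turn, and both libraries numbered 3 left out), 0 of the 40 actin genes and 0 of the 109 other actin genes passed the threshold in limma's test, and the smallest adjusted p-value of any of the 40 was 0.497. Over all genes tested, the count of 0 became 26 with the empirical null and 1, *Shank3*, with upper quartile scaling, robust eBayes, the replicate block, the block with robust eBayes and without both libraries numbered 3, and lay between 0 and 1 with each library left out, being 1, again *Shank3*, without WT-3. *Shank3* then passed, with log2 fold changes of 1.189 under upper quartile scaling, 1.14 without the libraries numbered 3 and 1.18 under the other 4, and between 1.09 and 1.24 with each library left out. The block, which is the paired fit, changed no other call. The number of paralog pairs without overlap lay between 2 and 6 with each library left out, where fewer libraries make overlap less likely, and was 6 without TG-2, 4 without TG-3 and 5 without WT-3. Before adjustment, p was below 0.05 for 0 to 2 of the 40 genes and for 0 to 8 of the other actin genes over all alternatives.

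Some values changed sign, all short of the threshold, and with each library left out these included *Arpc4*, *Actg1* and *Capza1*, which were not close to 0. With quantile scaling the values were *Actr2* -0.00909, *Arpc5l* 0.00582, *Rac1* -0.00506, *Limk2* 0.00313 and *Capza2* -0.00444, with upper quartile scaling *Arpc5l* 0.00614 and *Limk2* 0.00304, and without the libraries numbered 3 *Actr2* -0.00530, *Actr3* -0.0774, *Arpc5l* 0.0135 and *Wasf2* 0.0242. With each library left out, 23 genes changed sign at least once. Their ranges were -0.0960 to 0.12 for *Actr2*, -0.18 to 0.15 for *Actr3*, -0.0851 to 0.16 for *Arpc1b*, -0.22 to 0.20 for *Arpc2*, -0.0899 to 0.14 for *Arpc3*, -0.36 to 0.0424 for *Arpc4*, -0.0339 to 0.0182 for *Arpc5l*, -0.11 to 0.0466 for *Wasf2*, -0.0413 to 0.14 for *Nckap1*, -0.00605 to 0.0728 for *Abi2*, -0.0156 to 0.12 for *Cttn*, -0.0114 to 0.0276 for *Rac1*, -0.0582 to 0.0437 for *Pak1*, -0.45 to 0.45 for *Pak2*, -0.0575 to 0.15 for *Pak3*, -0.0432 to 0.0331 for *Limk2*, -0.11 to 0.0523 for *Ssh1*, -0.12 to 0.15 for *Ssh2*, -0.0475 to 0.000698 for *Cfl2*, -0.0376 to 0.21 for *Actg1*, -0.0748 to 0.11 for *Pfn2*, -0.18 to 0.00725 for *Capza1* and -0.0709 to 0.0881 for *Capza2*. The other 17 genes, *Wasf1*, *Wasf3*, *Cyfip1*, *Abi1* and *Brk1* among them, held their direction in every alternative. The cause was not tested. The normalized values do not hold the depth in reads, so no counting error could be set beside them, and *Was*, with a mean under 50 normalized counts, could not be fitted with the higher filter.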
